A study of Homo sapiens with 24 samples.

Results

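Box H/ACA small nucleolar RNAs and Cajal body RNAs were followed in 2 human lymphoma lines exposed to trabectedin. The members were all array probes whose gene symbol starts with SNORA or SCARNA, host gene symbols containing HG left out. The rule gave 126 of 47231 probes, 102 with a SNORA symbol and 24 with a SCARNA symbol, for 125 symbols in all (SNORA73B has 2 probes). Of these, 86 probes (73 SNORA and 13 SCARNA) were above background on at least 3 of the 24 arrays and were tested. The other 40 stayed at or near background, with no array above an intensity of 193.

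The cells were U2932 and OCI-Ly7, established lines of diffuse large B-cell lymphoma, grown in vitro. Each line received trabectedin, a marine-derived compound that binds the minor groove of DNA, or DMSO, the solvent control, for 8 h or 24 h, which makes 8 groups of 3 arrays. No dose and no genetic change is given in the labels. The 3 samples of a group are labelled as replicates and nothing says that they came from separate cultures, so p-values measure only the spread between these samples. Total RNA was labelled as biotinylated cRNA and read on Illumina bead arrays. The 12 U2932 arrays shared 1 chip, the OCI-Ly7 arrays of 8 h and of DMSO at 24 h shared another, and the OCI-Ly7 arrays with trabectedin for 24 h lay alone on a chip of their own, so chip and treatment cannot be told apart in that comparison, nor chip and line between the lines.

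H/ACA RNAs are short noncoding RNAs that fold into hairpins joined by a hinge (box H) and end with an ACA motif. Each pairs with a target RNA and guides the enzyme dyskerin (DKC1), held in a particle with NHP2, NOP10 and GAR1, to change a uridine to pseudouridine. SNORA members act mostly on ribosomal RNA in the nucleolus, and a few, such as U17 (SNORA73A and SNORA73B), take part in cutting the ribosomal RNA precursor. SCARNA members reside in Cajal bodies and guide changes in spliceosomal RNAs; some are of the H/ACA type, some of the box C/D type and some hold both. In human cells nearly all are cut from introns of host genes, and their mature forms carry no poly(A) tail. The labelling kit is of a type that primes on poly(A), so whether a probe read the mature RNA, an extended form or unspliced host RNA was not measured. Several members have near copies (SNORA2A and SNORA2B, SNORA7A and SNORA7B, SNORA17A and SNORA17B, SNORA73A and SNORA73B, SNORA74A and SNORA74B, SNORA80A and SNORA80E), and reading of a copy by a probe could not be measured either, so values of such members are uncertain as to copy.

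The starts of 3 host genes are shown as examples of hosts that moved in different directions, each holding a member given array by array: SNHG10 (a noncoding host) holds SCARNA13, KANSL2 (a subunit of a histone acetyltransferase complex) holds SNORA2B, and IPO7 (a nuclear import receptor) holds SNORA23. SNHG10 and KANSL2 rose in U2932 while IPO7 fell, and the small RNA inside each rose. The RefSeq sequences (GRCh38.p14, 5′ to 3′ on the gene's strand) run from 100 bases before the start to 30 bases after it, with the transcribed bases in capitals. They lie at chr14:95534843-95534972 (minus strand), chr12:48682209-48682338 (minus strand) and chr11:9384552-9384681 (plus strand).
SNHG10: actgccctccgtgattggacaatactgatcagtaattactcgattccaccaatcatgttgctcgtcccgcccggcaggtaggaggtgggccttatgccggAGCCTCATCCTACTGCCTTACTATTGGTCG
KANSL2: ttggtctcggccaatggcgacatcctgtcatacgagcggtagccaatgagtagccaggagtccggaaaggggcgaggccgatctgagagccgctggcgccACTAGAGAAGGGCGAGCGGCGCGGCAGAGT
IPO7: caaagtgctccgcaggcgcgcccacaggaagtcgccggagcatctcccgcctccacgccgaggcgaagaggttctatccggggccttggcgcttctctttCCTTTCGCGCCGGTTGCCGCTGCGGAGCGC
The motif CCAAT, searched on both strands, occurred 3 times in the SNHG10 window, 2 times in that of KANSL2 and 0 times in that of IPO7. It occurred in 20.1% of 35116 windows of this length and in 27.5% of the 51 windows at starts of hosts with a tested probe. CTTTCC, searched on both strands, occurred 0 times, 1 time and 1 time in the 3 windows, in 11.3% of all windows and in 15.7% of host windows. TATAAA, on both strands, was found in 0 of these 3, in 5.59% of all and in 1.96% of host windows. These are matches of letters and not shown sites.

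On the arrays of the DMSO groups, between 43.0 ± 3.61 (OCI-Ly7, 24 h) and 56.0 ± 6.25 (U2932, 24 h) of the 126 members were above background (mean ± SD, n = 3; background meant that fewer than 0.01 of 694 probes for genes silent in B cells were as bright). In U2932 the number went from 50.7 ± 4.16 with DMSO to 71.3 ± 2.52 with trabectedin at 8 h, and from 56.0 ± 6.25 to 82.0 ± 4.36 at 24 h. In OCI-Ly7 it went from 47.0 ± 2.65 to 53.0 ± 2.65 at 8 h and from 43.0 ± 3.61 to 64.7 ± 10.4 at 24 h. The trabectedin and DMSO arrays did not overlap in any of the 4 comparisons; the exact two-sided permutation test gave p = 0.1 in each, the smallest that 3 against 3 arrays allow. At a looser cut of 0.05 the U2932 groups stayed apart but both OCI-Ly7 comparisons overlapped, with 74 to 79 members on trabectedin arrays against 65 to 75 on DMSO arrays at 8 h and 69 to 94 against 65 to 74 at 24 h. The median deposited intensity over the 126 members, before scaling, was 165 with trabectedin and 150 with DMSO in U2932 at 8 h (exact permutation p = 0.1), 163 and 159 at 24 h (p = 0.7), 122 and 109 in OCI-Ly7 at 8 h (p = 0.3), and 101 and 116 at 24 h (p = 0.3). Over the same arrays the share of the other probes above background went down in U2932, from 37.0% to 32.3% at 8 h and from 38.6% to 28.4% at 24 h. It also went down in OCI-Ly7, from 36.9% to 33.5% at 8 h and from 35.9% to 34.0% at 24 h. Over the whole series 36 members were above background on all 24 arrays, 100 on at least 1 array and 26 on none.

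Array brightness differed between groups. The mean deposited intensity was 460 with trabectedin and 539 with DMSO in U2932 at 8 h, 365 and 543 at 24 h, 365 and 326 in OCI-Ly7 at 8 h, and 235 and 366 at 24 h. Its part in the results was not tested beyond the scalings given with them. In bulk samples, fewer cells of a type and less RNA per cell cannot be told apart. The B cell genes MS4A1, CD79A and CD79B were above background on all 24 arrays and CD22 on 23, whereas PAX5 was above background on 0. All 4 T cell markers (CD3D, CD3E, CD3G, CD2) were above background on 0 arrays. Of the other markers, LYZ, CSF1R, ITGAM, COL1A1, COL1A2, KRT5 and CDH1 were above on 0 arrays, CD14 on 17 (5 of them DMSO arrays), EPCAM on 12 and DCN on 5; whether CD14 bears on the results was not tested.

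The 6 members called in all 4 comparisons with the largest mean change are given array by array, as normalised log2 intensity, on which a step of 1 is a doubling. SCARNA13, known as U93 and made of H/ACA units in tandem, is a Cajal body RNA from SNHG10. In U2932 it read 5.91, 6.01 and 5.98 with DMSO and 8.66, 8.62 and 8.75 with trabectedin at 8 h, and 6.08, 6.09 and 6.15 against 9.76, 9.61 and 9.69 at 24 h. In OCI-Ly7 it read 6.64, 6.61 and 6.40 with DMSO and 8.65, 8.95 and 8.85 with trabectedin at 8 h, and 6.55, 6.38 and 6.09 against 8.85, 9.23 and 8.84 at 24 h. Every trabectedin array lay above every DMSO array in both lines on this normalised scale. Before any scaling, its OCI-Ly7 trabectedin arrays of 24 h did not all lie above the DMSO arrays. The log2 changes were 2.71 ± 0.07 (SE), 3.58 ± 0.07, 2.27 ± 0.13 and 2.64 ± 0.18 in that order, 6.56-fold, 12-fold, 4.81-fold and 6.21-fold.

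SNORA2B is an H/ACA RNA of the SNORA2 family within KANSL2. In U2932 it read 5.97, 5.74 and 5.97 with DMSO and 9.07, 8.97 and 8.96 with trabectedin at 8 h, and 6.17, 6.11 and 6.13 against 10.73, 10.66 and 10.61 at 24 h. In OCI-Ly7 it read 5.22, 5.37 and 5.09 against 5.83, 6.25 and 5.95 at 8 h, and 5.69, 5.18 and 5.34 against 6.26, 7.0 and 8.23 at 24 h, where the trabectedin arrays were far apart. Its log2 changes of 3.11 ± 0.09 and 4.53 ± 0.06 in U2932 were the largest of all tested members at both times (8.63-fold and 23.1-fold). In OCI-Ly7 it was in the background with DMSO at 8 h and at least 1.29-fold higher with trabectedin. At 24 h the change was 1.76 ± 0.42, with an adjusted p of 0.007475 in limma, and 0.0516 when no filter on dim probes was applied. There its deposited intensities, before any scaling, overlapped: 122, 141 and 152 with trabectedin against 149, 122 and 97.5 with DMSO.

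SNORA80A lies in URB1, a gene of ribosome biogenesis that had no tested probe. In U2932 it read 6.79, 6.92 and 6.56 with DMSO and 9.35, 9.33 and 9.39 with trabectedin at 8 h, and 6.94, 6.99 and 6.94 against 10.44, 10.34 and 10.28 at 24 h. In OCI-Ly7 it read 6.25, 6.26 and 6.20 against 7.65, 7.93 and 7.53 at 8 h, and 6.33, 6.21 and 6.22 against 7.93, 8.76 and 9.04 at 24 h. No groups overlapped, and the changes were 2.60 ± 0.10, 3.40 ± 0.07, 1.47 ± 0.13 and 2.32 ± 0.26 on the log2 scale.

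SNORA28 lies in EIF5, which encodes a factor for choosing the start codon in translation. In U2932 it read 6.41, 6.43 and 6.49 with DMSO and 9.12, 8.65 and 8.85 with trabectedin at 8 h, and 6.58, 6.58 and 6.61 against 10.39, 10.37 and 10.28 at 24 h. In OCI-Ly7 it read 6.82, 6.98 and 6.14 against 7.95, 7.64 and 7.8 at 8 h, and 6.64, 6.37 and 6.05 against 7.90, 8.66 and 9.34 at 24 h. The groups did not overlap on the normalised scale, and the log2 changes were 2.43 ± 0.11, 3.76 ± 0.06, 1.15 ± 0.20 and 2.28 ± 0.33. Before any scaling, the OCI-Ly7 trabectedin arrays of 24 h did not all lie above the DMSO arrays. Unlike most hosts, EIF5 itself rose in all 4 comparisons, by 0.91 ± 0.08, 1.85 ± 0.07, 0.60 ± 0.17 and 1.28 ± 0.24.

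SNORA23 and SNORA74B were in the background on every DMSO array, so only a lower bound of their rise can be given: the trabectedin mean against the lowest level that counts as above background. SNORA23, from IPO7, read 5.0, 4.98 and 4.87 with DMSO and from 7.21 to 7.30 with trabectedin in U2932 at 8 h, and 4.93, 4.92 and 4.98 against 8.22, 8.25 and 8.32 at 24 h. The OCI-Ly7 arrays gave 4.97, 4.99 and 5.05 against 5.88, 6.26 and 6.04 at 8 h, and 4.90, 4.90 and 4.91 against 7.0, 7.30 and 7.59 at 24 h. It was at least 3.02-fold, 6.59-fold, 1.34-fold and 2.96-fold higher with trabectedin in these 4 comparisons. SNORA74B, a relative of U19 within ATP6V0E1 (a subunit of the vacuolar proton pump), read 4.79, 4.81 and 4.88 against 7.26, 7.30 and 7.47 in U2932 at 8 h and 4.85, 4.86 and 4.87 against 8.07, 7.90 and 7.86 at 24 h. The OCI-Ly7 arrays gave 4.74, 4.80 and 4.71 against 5.96, 6.13 and 6.60 at 8 h and 4.75, 4.74 and 4.74 against 6.83, 7.42 and 8.18 at 24 h. The bounds were at least 3.22-fold and 5.29-fold in U2932 and at least 1.51-fold and 3.36-fold in OCI-Ly7. Both members stood clear of their DMSO arrays on every trabectedin array.

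**Figure D1:**
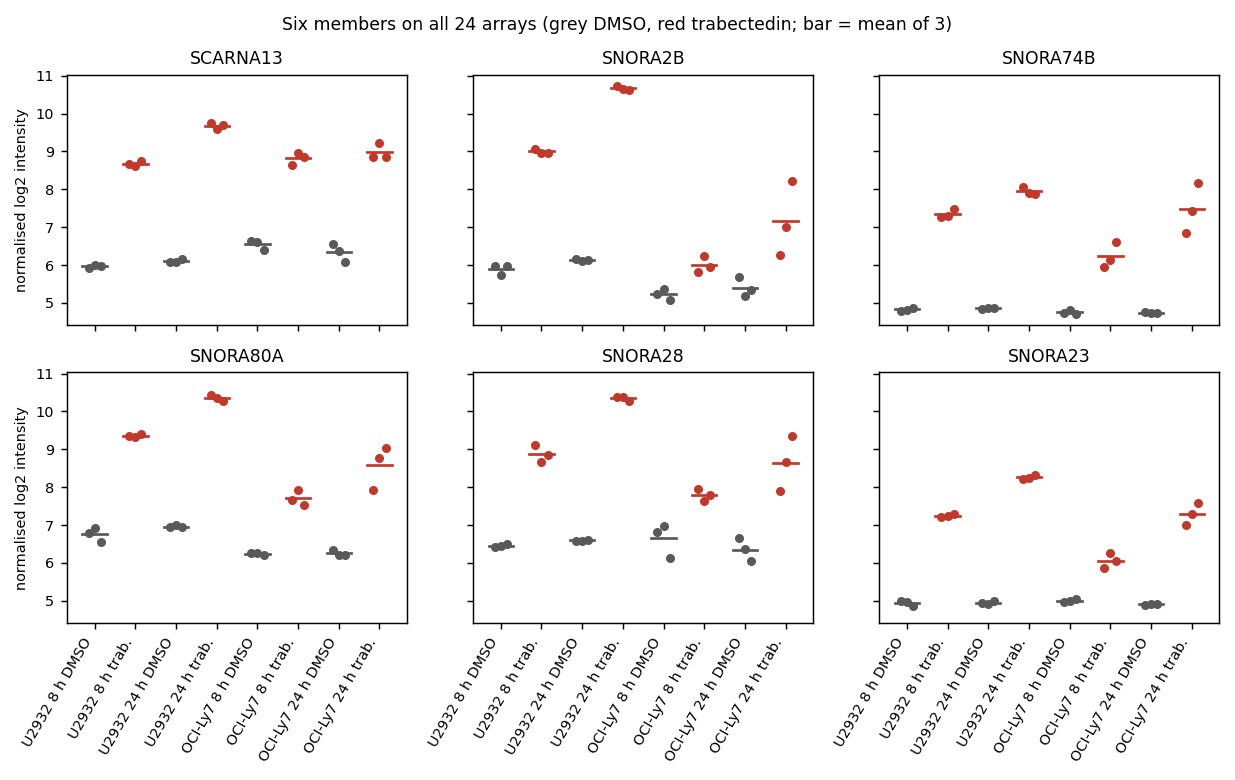
Normalised log2 intensity (vertical axis) of 6 members on each of the 24 arrays, by line, time and treatment (horizontal axis); grey points are DMSO arrays, red points trabectedin arrays and bars the mean of 3. The red points lie above the grey ones in every panel and comparison, and the 3 trabectedin arrays of OCI-Ly7 at 24 h range from 6.26 to 8.23 for SNORA2B.

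In U2932 at 8 h, 79 of the 86 tested members were higher with trabectedin and 3 lower at an adjusted p under 0.05 (limma, Benjamini-Hochberg over 12897 probes), where 37.4% of all tested probes were higher and 40.6% lower (78% in either direction). The median change of the members was 1.21 on the log2 scale, beside −0.02 for all tested probes, and 57 members were at least 2-fold higher. For this and the later counts of 2-fold rises, the matching share of all tested probes was not counted. These counts therefore only describe the members. The plot of shares by step of the log2 change shows all other tested probes beside the members. Of the 79, 48 were above background with both treatments, 23 only with trabectedin, and 8 on no array of the comparison, for which a change cannot be read. With members in the background set to their bound, or to 0 where both groups were, the median was 1.07. SNORA80E (2.14 ± 0.07) and SNORA9 (2.12 ± 0.07) were also among the 10 largest changes, and SNORA74A was at least 2.50-fold higher. SNORA12 was among them too with a fitted change of 2.49 ± 0.08. It was in the background on most DMSO arrays, so that size cannot be read.

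After 24 h in U2932, 80 members were higher and 3 lower, where 37.5% of all tested probes were higher and 47.6% lower (85.1% in either direction). The median change of the members was 1.92, or 1.79 at the bounds, beside −0.14 for all tested probes, and 69 members were at least 2-fold higher. Of the 80, 56 were above background with both treatments and 24 only with trabectedin. SNORA48 was at least 8.16-fold higher, SNORA74A at least 7.18-fold, SNORA51 at least 6.70-fold and SCARNA2 at least 6.19-fold, all from DMSO levels in the background. SNORA38B changed by 3.31 ± 0.11. Among members above background on all 6 arrays, the smallest rises were those of SNORA70 (0.36 ± 0.09), SNORA50C (0.58 ± 0.11), SNORA62 (0.66 ± 0.07) and SNORA16A (0.76 ± 0.07).

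In OCI-Ly7 at 8 h, 41 of the 86 were higher and 3 lower, where 28.9% of all tested probes were higher and 31.4% lower (60.4% in either direction). The median change of the members was 0.32, or 0.07 at the bounds, beside −0.01 for all tested probes. Only 8 members were at least 2-fold higher, and 28 of the 86 were in the background on all 6 arrays, among them 8 of the 41 called higher. Beside SCARNA13, SNORA80A and SNORA28, the largest changes included those of SNORA7B (1.21 ± 0.15), SNORA65 (1.08 ± 0.14), SNORA80E (1.02 ± 0.15) and SNORA67 (0.96 ± 0.16).

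After 24 h in OCI-Ly7, 50 members were higher and 2 lower, where 21% of all tested probes were higher and 26.1% lower (47.1% in either direction). The median change of the members was 0.64, or 0.29 at the bounds, beside −0.03 for all tested probes, and 28 were at least 2-fold higher. Of the 50, 29 were above background with both treatments, 20 only with trabectedin and 1 on no array. SNORA80E (1.79 ± 0.28) and SNORA65 (1.60 ± 0.25) were among the 10 largest changes, and SCARNA18 was at least 2.35-fold higher. SNORA21 was among them too with a fitted change of 2.31 ± 0.18. It was in the background on some OCI-Ly7 DMSO arrays, so that size cannot be read.

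**Figure D2:**
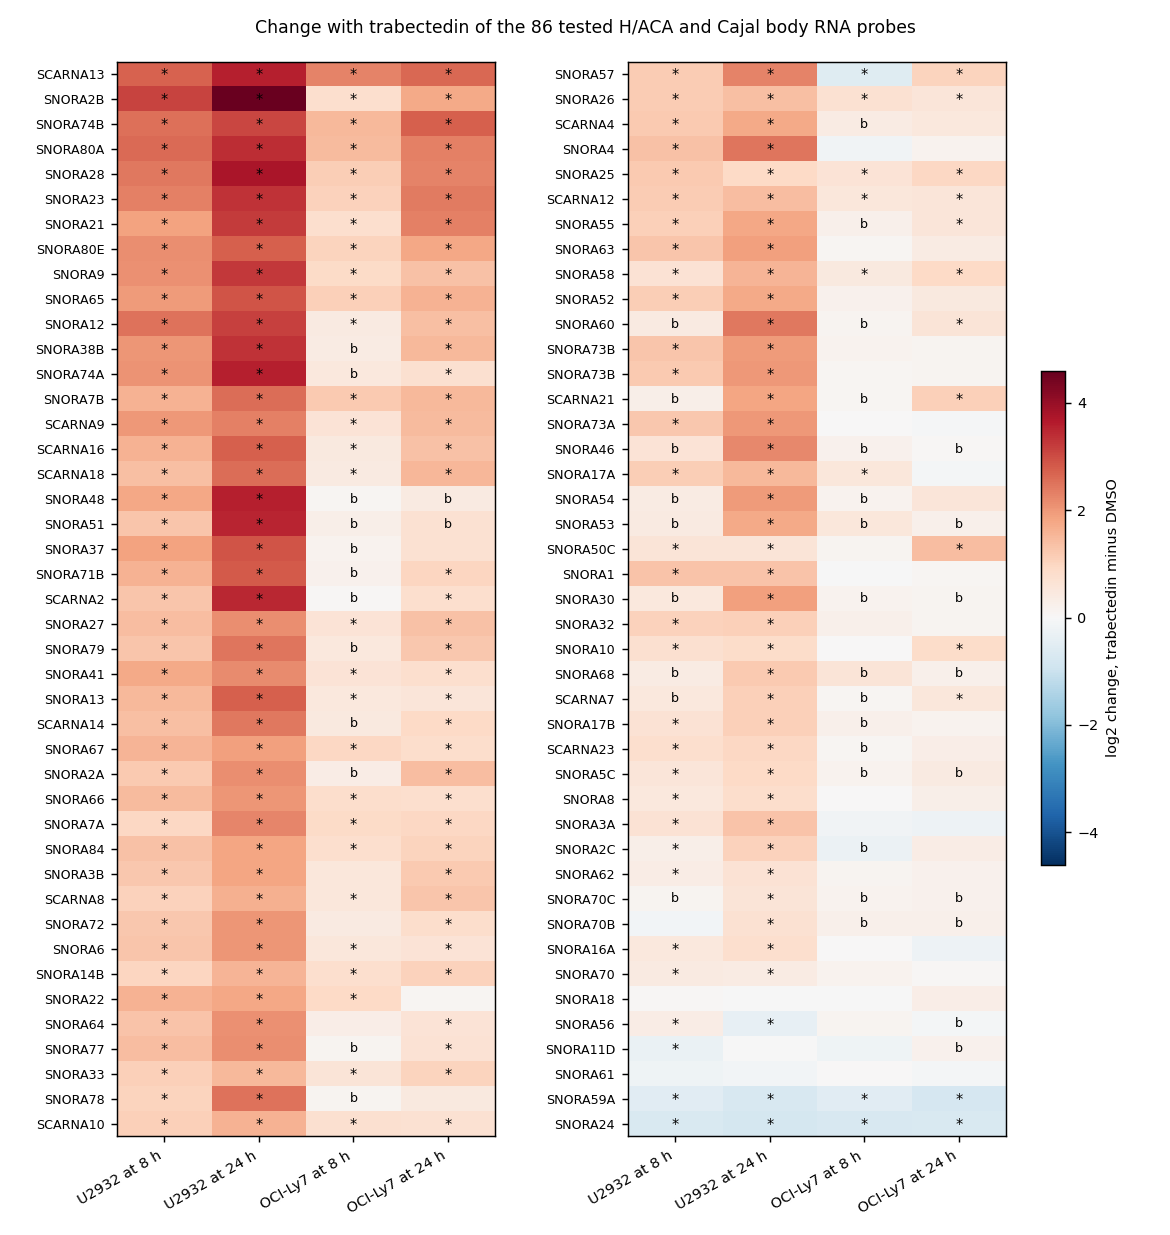
Log2 change, trabectedin minus DMSO (colour), of the 86 tested member probes (rows, ordered by their mean change) in the 4 comparisons (columns). A star marks an adjusted p under 0.05, and b a member in the background on all 6 arrays, of which there were 28 in OCI-Ly7 at 8 h and 0 in U2932 at 24 h.

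Members that passed the filter only through their trabectedin arrays had to differ, so the counts over 86 describe and do not support. There were 33 such members. Of the 53 that pass on DMSO arrays alone (an alternative chosen after seeing the data), 47 were higher in U2932 at 8 h and 47 at 24 h, 28 in OCI-Ly7 at 8 h and 32 at 24 h, where 35.3%, 35.1%, 28% and 20.5% of the 12163 probes passing that way were higher. With no filter, 86, 95, 42 and 39 of all 126 members were higher, where 17.8%, 19.2%, 13.1% and 8.24% of 29419 probes were. On that basis the medians over all 126 members were 0.65, 1.36, 0.17 and 0.40.

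The direction of the smaller rises depended on the scaling. With arrays scaled to a common median, the median of all tested probes shifted to −0.83 and −1.18 in U2932 at 8 h and 24 h and to −0.04 and −0.53 in OCI-Ly7. The members then split into 48 higher and 17 lower in U2932 at 8 h, 56 and 16 at 24 h, 25 and 3 in OCI-Ly7 at 8 h, and 18 and 4 at 24 h, where 7.85%, 12.1%, 21.6% and 2.78% of all tested probes were higher and 76.1%, 76.2%, 28.9% and 36.1% lower. Relative to the median of all tested probes, 80, 82, 72 and 74 of the 86 members lay above it. With no scaling at all, counting all 126 members whose deposited intensities did not overlap between the 3 trabectedin and the 3 DMSO arrays, U2932 at 8 h had 56 higher and 23 lower (5.17% and 57.7% of 29419 probes). At 24 h 43 were higher and 57 lower (3.02% and 91%). In OCI-Ly7 42 were higher and 1 lower at 8 h (19.1% and 8.94%), and 3 were higher (SNORA23, SNORA74B and SNORA80A) and 18 lower at 24 h (0.184% and 43.2%).

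**Figure D3:**
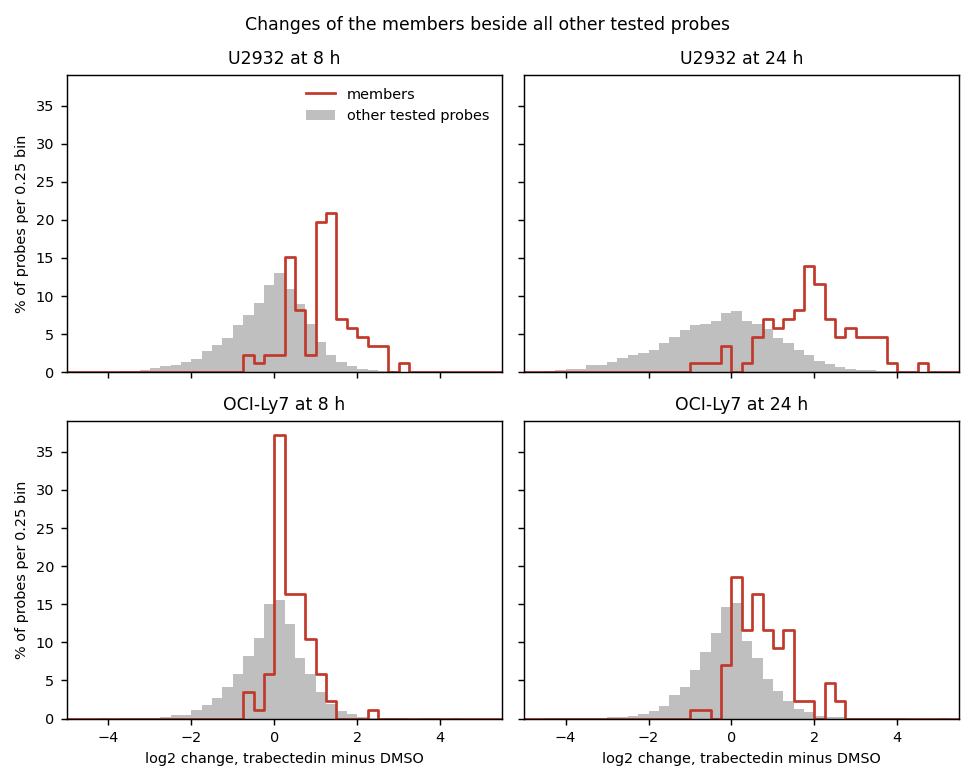
Share of probes in each 0.25 step (vertical axis, %) of the log2 change with trabectedin (horizontal axis), for the 86 tested members (red line) and all other tested probes (grey bars), by comparison. In U2932 the members lie to the right, with medians of 1.21 at 8 h and 1.92 at 24 h, and in OCI-Ly7 at 8 h most lie near 0, with a median of 0.32.

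Among the Cajal body RNAs, all 13 tested members were higher in U2932 at both times, 9 in OCI-Ly7 at 8 h and 11 at 24 h, beside 37.4%, 37.5%, 28.9% and 21% of all tested probes, although 2 of the 13 in U2932 at 8 h and 6 in OCI-Ly7 at 8 h were in the background on all 6 arrays. SCARNA9, a box C/D guide for U2 RNA, rose by 1.98 ± 0.08, 2.33 ± 0.06, 0.62 ± 0.17 and 1.46 ± 0.38 in the 4 comparisons in the order used above. SCARNA16 rose by 1.60 ± 0.09, 2.73 ± 0.09, 0.45 ± 0.13 and 1.36 ± 0.18. SCARNA10, known as U85 and a guide with both box types for U5 RNA, rose by 1.08 ± 0.09, 1.58 ± 0.09, 0.73 ± 0.14 and 0.68 ± 0.18; in median scaling its change in OCI-Ly7 at 24 h was −0.15. SCARNA2, a U2 guide with a promoter of its own, was in the background on all DMSO arrays and on all 6 arrays of OCI-Ly7 at 8 h, and at least 1.28-fold and 6.19-fold higher in U2932 at 8 h and 24 h. SCARNA8, SCARNA14 and SCARNA4 were at least 2.45-fold, 4.26-fold and 2.53-fold higher in U2932 at 24 h. SCARNA23 had the smallest change there, at least 1.35-fold, and did not pass the test in OCI-Ly7 (0.07 ± 0.12 and 0.32 ± 0.23).

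Few members went down. SNORA24, an H/ACA RNA inside the noncoding host SNHG8, fell in all 4 comparisons, by 0.69 ± 0.08 and 0.80 ± 0.07 in U2932 and by 0.72 ± 0.19 and 0.70 ± 0.15 in OCI-Ly7 on the log2 scale. In U2932 it read 9.52, 9.62 and 9.45 with DMSO and 8.79, 8.95 and 8.79 with trabectedin at 8 h, and 9.39, 9.35 and 9.30 against 8.63, 8.54 and 8.46 at 24 h. The OCI-Ly7 arrays gave 8.06, 8.57 and 7.75 against 7.47, 7.22 and 7.52 at 8 h, and 8.29, 8.34 and 8.22 against 7.43, 7.66 and 7.65 at 24 h. The trabectedin arrays were below the DMSO arrays each time. SNHG8 itself rose by 0.80 ± 0.08, 1.36 ± 0.07 and 0.47 ± 0.11 in the first 3 comparisons and gave 0.18 ± 0.21 in the last. SNORA59A was called lower in all 4, with each trabectedin array in the background, at fitted changes from −0.76 to −0.52 and no bound above 1-fold. SNORA57 fell by 0.57 ± 0.15 in OCI-Ly7 at 8 h, and rose by 1.16 ± 0.09 and 2.30 ± 0.07 in U2932 and by 1.04 ± 0.17 in OCI-Ly7 at 24 h. In U2932 SNORA11D was called lower at 8 h (fitted change −0.32) and SNORA56 at 24 h (−0.37), each in the background with trabectedin there. SNORA56 was called higher in U2932 at 8 h (0.34). In all, 36 members were higher in 4 comparisons, 19 in 3, 23 in 2, 3 in 1 and 5 in none, with calls on members in the background counted. The matching tally over all tested probes was not made, and 33 of the 86 members passed the filter only through their trabectedin arrays. The tally thus only describes the members.

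Whether the response differed between the lines was tested as an interaction. At 8 h the change was larger in U2932 for 60 of 86 members and smaller for 0, where 19.3% of all tested probes had a higher and 26% a lower difference (45.3% in either direction). Of 41 members above background on all 12 arrays, it was larger for 31. For this and the later counts over 12 arrays, the share of all probes so detected was not counted. Those counts were not made in median scaling either. SNORA57, above background throughout, differed by 1.73 ± 0.18. SNORA2B (2.33 ± 0.17) and SNORA12 (2.07 ± 0.16) had higher fitted differences, but SNORA2B was in the background with DMSO in OCI-Ly7 and SNORA12 was above it on only 1 DMSO array of each line, so the sizes cannot be read. In median scaling, where the median difference over all tested probes was −0.87, the split was 18 higher and 21 lower with a median of −0.03, and 3.61% of all tested probes were higher and 73.2% lower. The sign of the median line difference at 8 h thus depended on the scaling, while 84 of the 86 members lay above the median of all tested probes in it. At 24 h the change was larger in U2932 for 66 and smaller for 1, where 24.4% of all tested probes were higher and 34.8% lower (59.2% in either direction). In median scaling the split was 35 and 5, where 7.31% of all tested probes were higher and 46.3% lower. Of 36 members above background on all 12 arrays, it was larger for 25 and smaller for 1, SNORA50C (−0.85 ± 0.29). The highest fitted differences, of SNORA48 (3.16 ± 0.21), SNORA74A (2.82 ± 0.29) and SNORA51 (2.78 ± 0.21), rest on DMSO levels in the background in both lines and have no readable size. SNORA2B (2.77 ± 0.48) was above background on 1 of the 3 DMSO arrays of OCI-Ly7.

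Between the times in U2932, the change grew from 8 h to 24 h for 68 members and shrank for 2, where 23.5% of all tested probes were higher and 32.9% lower (56.4% in either direction). In median scaling the split was 41 and 8, where 12.5% of all tested probes were higher and 42.7% lower. Of 44 members above background on all 12 arrays, it grew for 32 and shrank for 1, SNORA25 (−0.28 ± 0.10). The highest fitted differences, of SNORA51 (2.23 ± 0.10), SCARNA2 (2.18 ± 0.13) and SNORA60 (2.02 ± 0.13), rest on DMSO levels in the background and have no readable size. SNORA56, an intronic RNA of the dyskerin gene DKC1, had a fitted difference of −0.70 ± 0.17 and was in the background on all 3 trabectedin arrays of 24 h. In OCI-Ly7 the change grew for 15 and shrank for 1, where 15.5% of all tested probes were higher and 15.9% lower (31.4% in either direction). The share of members higher was close to that of all tested probes. Of 36 members above background on all 12 arrays, it grew for 5 and shrank for 0. SNORA57 grew by 1.61 ± 0.22. SNORA21 (1.54 ± 0.24), SNORA23 (1.33 ± 0.21) and SNORA22 (−0.84 ± 0.28) were in the background on some or all DMSO arrays, so their fitted differences have no readable size. The split was 3 and 1 in median scaling (1.23% and 22.7% of all tested probes), and the called total of 16 became 27 without the first replicate of trabectedin at 24 h.

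With DMSO alone in U2932, 10 members were higher and 1 lower at 24 h than at 8 h, where 11.6% of all tested probes were higher and 11.9% lower (23.5% in either direction). In median scaling 8 were higher and 0 lower, where 8.55% of all tested probes were higher and 6.47% lower. The largest was SNORA50C (0.35 ± 0.07), and SNORA33 was the only lower one (−0.26 ± 0.09). The total of 11 calls became 4, 6 or 6 without replicate 1, 2 or 3 of DMSO at 24 h. With the spread shared by all 24 arrays, 2 members were higher and 1 lower in OCI-Ly7 with DMSO. In that setting 12.2% of all tested probes were higher and 13.4% lower. In its own fit limma called 0 members there, and 8 had an unadjusted p under 0.05. This stood beside 2.87% of all tested probes called higher and 3.49% lower in that fit (6.36% in either direction). Leaving out the first replicate of DMSO at 24 h gave 2 calls.

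Between the untreated lines, 36 members were higher in U2932 and 4 lower, where 36.9% of all tested probes were higher and 34.4% lower (71.3% in either direction). SNORA24 (1.23 ± 0.11), SNORA67 (1.21 ± 0.10) and SNORA63 (1.15 ± 0.15) were higher in U2932, and SNORA33 (−0.96 ± 0.17), SCARNA13 (−0.41 ± 0.08) and SNORA21 (−0.26 ± 0.10) higher in OCI-Ly7. In median scaling, which moved the median of all tested probes to 0.65, the split was 63 and 1, where 69.1% of all tested probes were higher and 11.4% lower.

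Judged by span in RefSeq, 105 of the 126 members lay in a single other gene, 18 in several and 3 (SCARNA2, SNORA50C and SNORA7B) in none. For 60 tested members that gene, its host, had a tested probe, which gave 49 hosts, 8 of them with more than 1 member. In U2932 at 8 h, 17 of the 49 hosts were higher and 18 lower, near the 37.4% and 40.6% of all tested probes. The median host change was −0.02 over the 60 pairs, beside 1.21 for the members. Both were higher in 22 pairs, and in 18 the member was higher and the host lower. At 24 h both were higher in 25 and the directions were opposite in this way in 15, with medians of 0.05 and 1.92. In OCI-Ly7 the numbers were 8 and 6 at 8 h (medians −0.13 and 0.35) and 8 and 5 at 24 h (medians −0.03 and 0.71). The member's change was above its host's in 51, 50, 48 and 46 of the 60 pairs. These pairs include members that passed the filter only through their trabectedin arrays, and fitted changes of members in the background. The counts of pairs therefore describe and do not support.

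Members were called higher in hosts of either direction. The same limit of the filter holds for the counts below, and members that pass on DMSO arrays alone were not counted by host. In U2932 at 24 h, 25 of 28 members with a rising host were higher (median 1.81), as were 15 of 16 with a falling host (median 2.04). All 16 with a host that was not called were higher too (median 1.95), where 37.5% of all tested probes were higher. By type of host, the medians there were 2.11 for 10 members in noncoding hosts, 1.82 for 15 in ribosomal protein genes and 1.85 for 44 in other protein-coding genes. SNORA23 was at least 6.59-fold higher there, and IPO7 fell by 1.93 ± 0.13. SNORA46 was at least 2.97-fold higher there, and CNOT1, the scaffold of the main deadenylase complex, fell by 2.75 ± 0.06. SCARNA10 rose by 1.58 ± 0.09 and NCAPD2, a condensin subunit, fell by 2.04 ± 0.13. SNORA12 rose by 3.14 ± 0.07 and its host CWF19L1 fell by 2.04 ± 0.07. SNORA21 rose by 3.21 ± 0.07 while RPL23, a ribosomal protein gene, fell by 0.22 ± 0.06. SNHG10 rose by 1.65 ± 0.22 there and by 0.89 ± 0.15 in OCI-Ly7 at 24 h, less than SCARNA13 in both. KANSL2 rose by 0.47 ± 0.08 and 0.78 ± 0.07 in U2932 and by 0.95 ± 0.20 in OCI-Ly7 at 24 h, and gave 0.20 ± 0.16 in OCI-Ly7 at 8 h. SNORA46, SNORA12 and SNORA21 at this time were chosen after their values were seen.

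Values also varied within a host. KANSL2 holds SNORA2A, SNORA2B and SNORA2C, which in U2932 at 24 h were at least 2.56-fold, 23.1-fold and at least 1.82-fold higher (the first and last in the background with DMSO). TAF1D, a subunit of the factor that starts ribosomal RNA synthesis, rose by 1.53 ± 0.10 there. Its members SNORA1, SNORA32, SNORA25 and SNORA8 rose by 1.31 ± 0.11, 1.09 ± 0.08, 0.93 ± 0.08 and 0.82 ± 0.11, and SNORA18 gave −0.01 ± 0.07 (adjusted p = 0.879 in limma). These 2 hosts were chosen after their values were seen, and differences between their members were not tested.

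**Figure D4:**
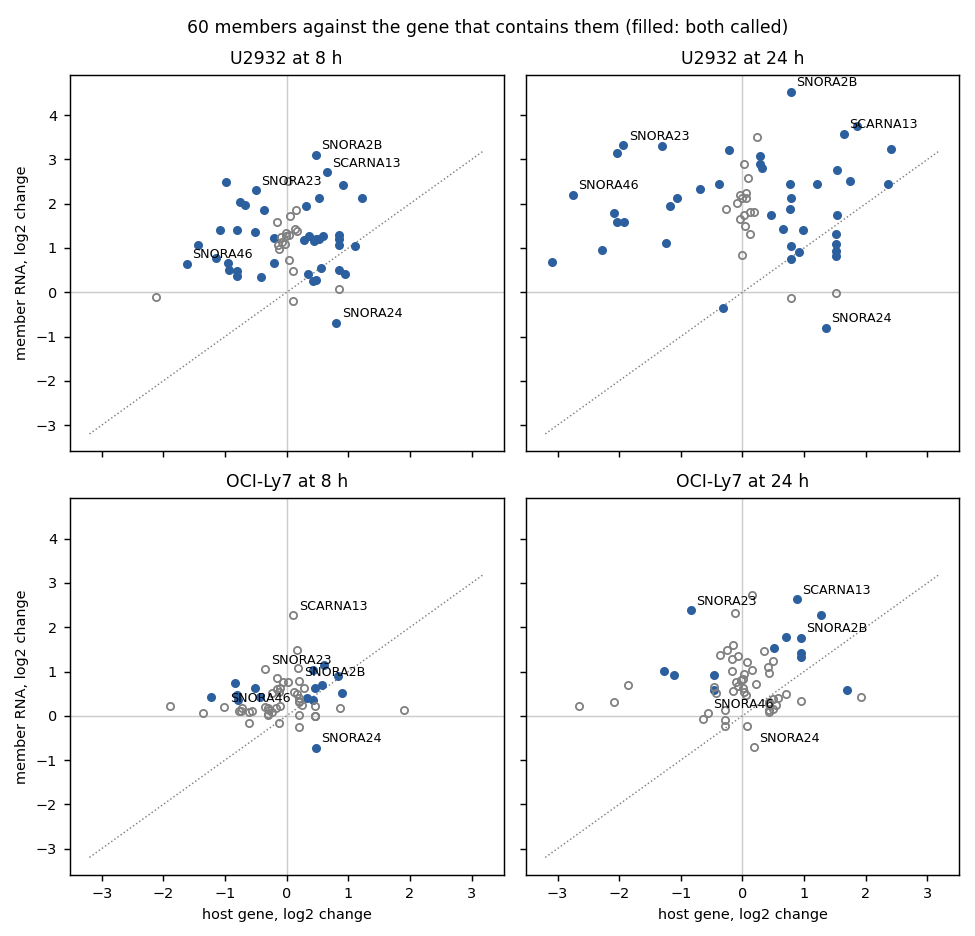
Log2 change with trabectedin of 60 members (vertical axis) against that of the gene that contains each (horizontal axis), by comparison; filled points have both called, open ones not, and the dotted line marks equal change. Points lie above the line in 51, 50, 48 and 46 of the 60 pairs, and SNORA24 lies below 0 with its host to the right of 0 in each panel.

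Of 9 tested genes for the proteins of H/ACA particles and their assembly, 1 was higher and 5 lower in U2932 at 8 h, 0 and 6 at 24 h, 3 and 3 in OCI-Ly7 at 8 h, and 0 and 4 at 24 h. Each gene was read by its tested probe of highest mean. GAR1 was among the lower genes in U2932, but other probes of it had the opposite sign, 1 at 8 h and 3 at 24 h. All tested probes, against which this list and the next lists are read, were 37.4% higher and 40.6% lower, 37.5% and 47.6%, 28.9% and 31.4%, and 21% and 26.1% in the 4 comparisons. SHQ1, a chaperone that holds dyskerin before assembly, fell by 1.94 ± 0.09 in U2932 at 8 h, was at least 4.52-fold lower there at 24 h, and fell by 1.23 ± 0.14 and 1.23 ± 0.17 in OCI-Ly7. DKC1 fell by 0.41 ± 0.08, 0.32 ± 0.07, 0.29 ± 0.11 and 0.64 ± 0.15 in the 4 comparisons. RUVBL1, an assembly ATPase, fell by 0.78 ± 0.08, 1.69 ± 0.07, 0.72 ± 0.14 and 1.35 ± 0.17. NHP2 and NOP10 did not pass the test in U2932, with changes between 0.01 and 0.11. In OCI-Ly7 at 8 h NAF1, RUVBL2 and NHP2 rose by 1.11 ± 0.18, 0.65 ± 0.16 and 0.29 ± 0.11. RUVBL2 also rose in U2932 at 8 h, by 0.41 ± 0.14, and fell there at 24 h by 0.37 ± 0.09. NHP2 fell in OCI-Ly7 at 24 h by 0.63 ± 0.19.

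Of 17 tested genes of telomerase and the Cajal body, U2932 at 8 h had 7 higher and 4 lower, then 9 and 3 at 24 h, 6 and 5 in OCI-Ly7 at 8 h, and 5 and 4 at 24 h, so that the share higher in U2932 at 8 h was near that of all tested probes. NOLC1, a chaperone that shuttles between nucleolus and Cajal body, rose by 1.05 ± 0.07, 1.72 ± 0.06, 1.22 ± 0.13 and 0.90 ± 0.20. USPL1, a Cajal body protease, rose by 0.88 ± 0.07, 1.46 ± 0.06, 0.93 ± 0.12 and 1.66 ± 0.20. WRAP53, which brings H/ACA RNAs to Cajal bodies, rose by 0.76 ± 0.09 and 1.11 ± 0.06 in U2932 and by 1.70 ± 0.19 in OCI-Ly7 at 24 h, and gave −0.17 ± 0.11 in OCI-Ly7 at 8 h. GEMIN6 fell in all 4, by 1.22 ± 0.08, 1.18 ± 0.08, 0.50 ± 0.13 and 0.75 ± 0.21. TERC, the telomerase RNA, which ends in an H/ACA domain but falls outside the rule, was above background on the 3 trabectedin arrays of U2932 at 24 h, at least 1.91-fold higher than with DMSO, and on 0 arrays of the other comparisons.

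Of 20 tested genes for trimming the 3′ ends of small RNAs and for their decay in the nucleus, U2932 at 8 h had 7 higher and 9 lower, then 8 and 11 at 24 h, 4 and 10 in OCI-Ly7 at 8 h, and 5 and 5 at 24 h. PARN, the exonuclease that removes short adenosine tails from H/ACA RNAs, fell by 2.69 ± 0.10 in U2932 at 8 h, was at least 4.77-fold lower there at 24 h, and fell by 3.39 ± 0.25 and 2.09 ± 0.22 in OCI-Ly7. MTREX, the helicase that feeds the nuclear exosome, fell by 2.96 ± 0.10, was at least 8.34-fold lower, and fell by 1.38 ± 0.18 and 1.54 ± 0.16, in the same order. EXOSC3, a cap subunit of that exosome, fell by 2.51 ± 0.07, 2.96 ± 0.09, 1.15 ± 0.12 and 0.73 ± 0.15. DIS3, an exosome nuclease, rose by 2.37 ± 0.09, 2.50 ± 0.12, 2.13 ± 0.15 and 0.88 ± 0.19, and DBR1, which opens intron lariats, by 1.35 ± 0.10, 2.20 ± 0.14, 1.07 ± 0.14 and 1.15 ± 0.22. Any link of these genes to the levels of the small RNAs was not tested.

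The related classes of small RNA were read the same way. Over all tested probes, 37.4%, 37.5%, 28.9% and 21% were higher in the 4 comparisons. Box C/D small nucleolar RNAs (SNORD symbols) were higher in 79, 86, 41 and 37 of 89 tested probes, with medians of 0.99, 2.00, 0.29 and 0.44. Spliceosomal RNAs (RNU symbols) were higher in 12, 12, 11 and 11 of 13, with medians of 1.56, 2.98, 1.41 and 2.64. In OCI-Ly7 at 8 h the members' median was 0.32. Both classes went through the same filter and quantile scaling as the members, so their counts only describe. They were not read in median scaling or with the filter on DMSO arrays. Differences between these classes were not tested.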

How the data were processed

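Total RNA of 24 samples was read on Illumina bead arrays. The deposited tables hold 47231 probe intensities per array, not scaled between arrays, as the values show, and the authors' log2 values, which differed from the quantile-normalised log2 of the deposited intensities by at most 4.99e-09. The software behind them is not given in the sources used here. Gene symbols came from the platform's probe table: 30113 probes had 1 symbol, 8 several and 17110 none.

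Background was estimated from 694 probes of gene families silent in B cells, in place of negative controls. The intensities were corrected by normexp (offset 16), quantile-normalised and taken to log2. A probe was above background on an array at a detection p under 0.01 and tested if so on at least 3 of 24 arrays (12897 probes). Each comparison was fitted with limma 3.58.1 in R 4.3.3, two-sided, on its own arrays only, with Benjamini-Hochberg adjustment over all tested probes and calls at 0.05; the script was tested on simulated data. Correlation of replicates within a group was 0.972 to 0.998. The deviations of same-numbered samples of 2 groups had correlations from −0.08 to 0.21. Pairing by number was not used in the main fit, and these values, with 3 samples per group, cannot exclude it. The number of arrays limits the precision.

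Named members were drawn, per effect, from 10 called members at each end of the range of changes (above background on all 3 arrays of a group) and every tested SCARNA member. Differences between effects drew on their 5 highest and 5 lowest called members, and DMSO and line comparisons on 3 at each end. Hosts of named members and up to 3 pathway genes at each end were added. Not every member of these sets is given with its values, and exceptions are stated. The members, gene lists and tests were chosen with earlier results of these data known. Hosts were taken by span in the GRCh38.p14 RefSeq table, which has no strand, so hosts on the opposite strand could not be left out as the design had it. Figures were drawn with matplotlib 3.10.9. Alternatives, listed in the closing section, varied background correction, scaling, filter, spread and replicates.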

Additional observations from a re-analysis of the deposited data

Results flagged for a closer look

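The differences between effects below were tested as interaction terms in limma, on the log2 scale, and stand here because 2 groups responded differently under the same contrast. Groups of 3 arrays are too small for the outlier test used in larger groups.

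Between the lines, 60 members at 8 h and 67 at 24 h had a different change, where 45.3% and 59.2% of all tested probes did. At 8 h SNORA2B (2.33), SNORA12 (2.07) and SNORA57 (1.73) had higher fitted changes in U2932 than in OCI-Ly7; SNORA2B was in the background with DMSO in OCI-Ly7 and SNORA12 on most DMSO arrays, so the sizes for these cannot be read. SNORA57 fell in OCI-Ly7 at 8 h, so its change had opposite directions in the lines. At 24 h SNORA48 (3.16), SNORA74A (2.82) and SNORA51 (2.78) had higher fitted changes in U2932; each was in the background with DMSO in both lines, so the sizes cannot be read. SNORA50C (-0.85), above background throughout, rose less in U2932. SNORA48 and SNORA51 were in the background on all 12 OCI-Ly7 arrays of 8 h and 24 h, DMSO and trabectedin. At both times chip and line cannot be told apart, and at 24 h the OCI-Ly7 trabectedin arrays also lay alone on a chip.

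Between the times, 70 members differed in U2932 and 16 in OCI-Ly7, where 56.4% and 31.4% of all tested probes did. In OCI-Ly7 the share of members that differed was thus below that of all tested probes. In U2932 SNORA51 (2.23), SCARNA2 (2.18) and SNORA60 (2.02) had higher fitted changes at 24 h, all from DMSO levels in the background and with no readable size. SNORA25 (-0.28) changed less at 24 h, and SNORA56 (-0.7), in the background with trabectedin at 24 h, had a lower fitted change. In OCI-Ly7 SNORA57 (1.61), SNORA21 (1.54) and SNORA23 (1.33) had higher fitted changes at 24 h and SNORA22 (-0.84) a lower one. All but SNORA57 were in the background on some or all DMSO arrays, with chip and treatment confounded at 24 h.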

How the results depend on the processing

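Without background correction (the authors' deposited log2 values), with an offset of 50, with no filter, with detection at 0.05, with the highest probe per gene or with the replicate block, every count of members higher, and of members called in the other comparisons, stayed within 1.5 times its main value. Counts of members lower moved more: between untreated lines from 4 to 2 without background correction, and from 1 to 0 with an offset of 50, no filter and other settings in differences and in DMSO over time. With the replicate block all 123 named values also kept direction and call, the 79 and 80 rises in U2932 among the counts. Median scaling moved the counts in U2932 at 8 h to 48 higher and 17 lower, at 24 h to 56 and 16, in OCI-Ly7 to 25 higher at 8 h and to 18 higher and 4 lower at 24 h. The same scaling left 39 (8 h) and 40 (24 h) calls between lines, 4 between times in OCI-Ly7 and 64 between untreated lines. The filter on DMSO arrays, which tests fewer members, gave 47, 47 and 32 higher (U2932 at 8 h and 24 h, OCI-Ly7 at 24 h), 38 and 39 between lines, and 41 and 10 between times in U2932 and OCI-Ly7. A spread over all 24 arrays gave 28 between times in OCI-Ly7, and 0 and 3 in DMSO over time in U2932 and OCI-Ly7. With that spread 21.9% of all tested probes were higher and 22.5% lower between times in OCI-Ly7. In DMSO over time the shares were 1.96% and 1.09% in U2932 and 12.2% and 13.4% in OCI-Ly7. Detection at 0.05 put 71.3 and 70.7 members above background on the OCI-Ly7 DMSO arrays of 8 h and 24 h, and the OCI-Ly7 groups then overlapped.

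Leaving out single replicates gave, for members higher, 78 to 79 and 79 to 80 in U2932 and 35 to 39 and 35 to 54 in OCI-Ly7 (8 h and 24 h). For members lower it gave 2 to 3 at both times in U2932, and 3 to 4 and 2 to 2 in OCI-Ly7. Calls between lines ran from 55 to 63 and 62 to 71, between times from 68 to 72 in U2932 and 11 to 27 in OCI-Ly7, in DMSO over time from 4 to 10 and 0 to 2, and between untreated lines from 36 to 42. Calls lost in this way were those of SCARNA21 and SNORA11D in U2932 at 8 h, of SCARNA4, SCARNA14, SCARNA16 and SCARNA18 in OCI-Ly7 at 8 h, and of SNORA6, SNORA13, SNORA26, SNORA41, SNORA64, SCARNA2, SCARNA7, SCARNA10 and SCARNA12 in OCI-Ly7 at 24 h. SCARNA23 in OCI-Ly7 at 8 h, which was not called, ran from -0.018 (without trabectedin replicate 3) to 0.1287.

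Signs turned in median scaling; the cause was not tested, and the shift of all probes stands in the report. Changes above 0 went from 81 to 62 and 80 to 62 of 86 members in U2932 (8 h and 24 h) and from 77 to 68 and 78 to 59 in OCI-Ly7. Named called members that turned in U2932 at 8 h were SNORA16A (-0.73), SNORA3A (-0.54), SNORA50C (-0.61), SNORA58 (-0.39), SNORA62 (-0.76), SNORA70 (-0.64) and SNORA8 (-0.58). In U2932 at 24 h they were SCARNA7 (-0.0322), SNORA10 (-0.63), SNORA16A (-0.87), SNORA17B (-0.29), SNORA25 (-0.25), SNORA50C (-1.10), SNORA62 (-0.70), SNORA70 (-0.99) and SNORA8 (-0.61). In OCI-Ly7 at 24 h they were SCARNA10 (-0.15), SNORA26 (-0.10), SNORA41 (-0.084), SNORA6 (-0.20), SNORA64 (-0.10) and SNORA67 (-0.0393). Chip as a block was not run, because each group lies on 1 chip and the treatment is confounded with it in OCI-Ly7 at 24 h. Dim probes near background limit what can be read, above all in OCI-Ly7.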
